A study of Mus musculus with 6 samples.

Results

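The genes described here are 33 genes known as markers of 2 cell types that line the fluid-filled ventricles of the brain: 17 genes of the choroid plexus epithelium and 16 genes of ciliated ependyma. They were read by gene symbol from a mouse brain RNA-seq table of 45777 genes and kept if every one of the 6 samples held at least 1 read of the gene. All 33 passed, and they are among 22337 genes that passed the same filter and entered the tests. Samples were made from astrocytes of mice on a C57BL/6 background that carried the Aldh1l1 cre/ERT2 and Rosa26-tdTomato fl/fl alleles, although the sample labels give the genotype as WT. In these mice tamoxifen, given at 75 mg/kg on 5 days, turned on the red protein tdTomato in cells in which the Aldh1l1 promoter is active. Vehicle and STZ mice were males that received, at 8 weeks, a single dose of citrate buffer or of 150 mg/kg streptozotocin (STZ), which kills insulin-producing cells and raises blood glucose, and the brains were collected 21 days later. Mice of the STZ group were kept in the study only if their blood glucose had risen.

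The choroid plexus is a frond of epithelium inside the ventricles that secretes cerebrospinal fluid, moves ions, water and vitamins from blood into that fluid, and releases carrier proteins and hormones into it. Ependymal cells form the single layer between ventricle and brain tissue, and each carries a tuft of motile cilia whose beating moves the fluid. Neither cell is an astrocyte, and both are usually told from astrocytes by marker genes of this kind.

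Each of the 6 samples, 3 of vehicle and 3 of STZ mice, was a pool of cells sorted from 3 brains. P-values therefore measure the spread between pools, and nothing in the labels ties a vehicle pool to an STZ pool. Total read counts lay between 52529048 and 58749115, so counting error was small for all but the least abundant genes: the smallest count of a choroid plexus gene in any sample was 486, and that of an ependymal gene was 74. Vehicle replicate 1 had the lowest summed level of both groups of genes, and the median difference of each group is given with and without it. Markers of the labelled cell type were abundant, and 12 astrocyte genes summed to 15258 to 18623 TPM (transcript abundance corrected for length and scaled to the same sum in each sample) in vehicle and 15262 to 16842 TPM in STZ samples.

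Choroid plexus genes were abundant in every sample. Their 17 levels summed to 14352, 36975 and 37127 TPM in vehicle replicates 1, 2 and 3 and to 23965, 19099 and 32688 TPM in STZ replicates 1, 2 and 3. They took 1.44% to 3.71% of all TPM, which put them above the 12 astrocyte genes in all samples except vehicle replicate 1. Ependymal genes were far lower, with sums of 351, 752 and 932 TPM in vehicle and 1090, 888 and 793 TPM in STZ samples, or 0.0351% to 0.109% of all TPM. In bulk samples such as these, fewer cells of a type and less RNA per cell cannot be told apart.

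The low and high samples were not the same for the 2 groups of genes. Vehicle replicate 1 held the least of both, but vehicle replicates 2 and 3 held the most choroid plexus RNA, while STZ replicate 1 held the most ependymal RNA. STZ replicate 2 had a choroid plexus sum above that of vehicle replicate 1 alone and an ependymal sum above that of STZ replicate 3. The ratio of the sums was 40.9, 49.2 and 39.8 in vehicle and 22.0, 21.5 and 41.2 in STZ samples, so STZ replicates 1 and 2 lay below all vehicle samples and STZ replicate 3 lay among them.

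**Figure D1:**
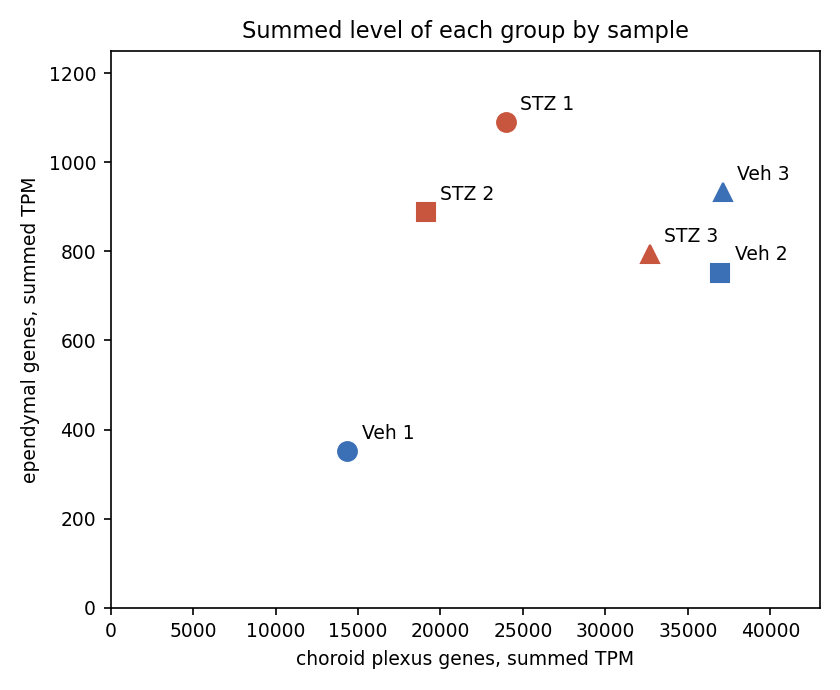
Summed TPM of the 17 choroid plexus genes (horizontal axis) against summed TPM of the 16 ependymal genes (vertical axis), 1 point per sample, blue for vehicle and red for STZ, both axes from 0. Vehicle replicate 1 is lowest on both axes, at 14352 and 351 TPM. All STZ samples lie above vehicle replicate 2 on the ependymal axis and to its left on the choroid plexus axis.

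To give each gene the same weight, levels were also averaged over genes as log2 CPM (reads scaled to library size with TMM factors). The mean log2 CPM of choroid plexus genes was 7.26 ± 0.745 (SD, n = 3) in vehicle and 6.95 ± 0.432 in STZ samples. That of ependymal genes was 3.63 ± 0.84 in vehicle and 4.26 ± 0.27 in STZ samples. Both differences were smaller than the spread among vehicle samples. The gap between the 2 groups of genes was 3.71, 3.86 and 3.31 log2 units in vehicle replicates 1 to 3 and 2.38, 2.35 and 3.35 in STZ replicates 1 to 3, with means of 3.63 ± 0.284 and 2.69 ± 0.566. The gap in STZ replicate 3 was as wide as that in vehicle replicate 3, and so the groups overlapped.

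**Figure D2:**
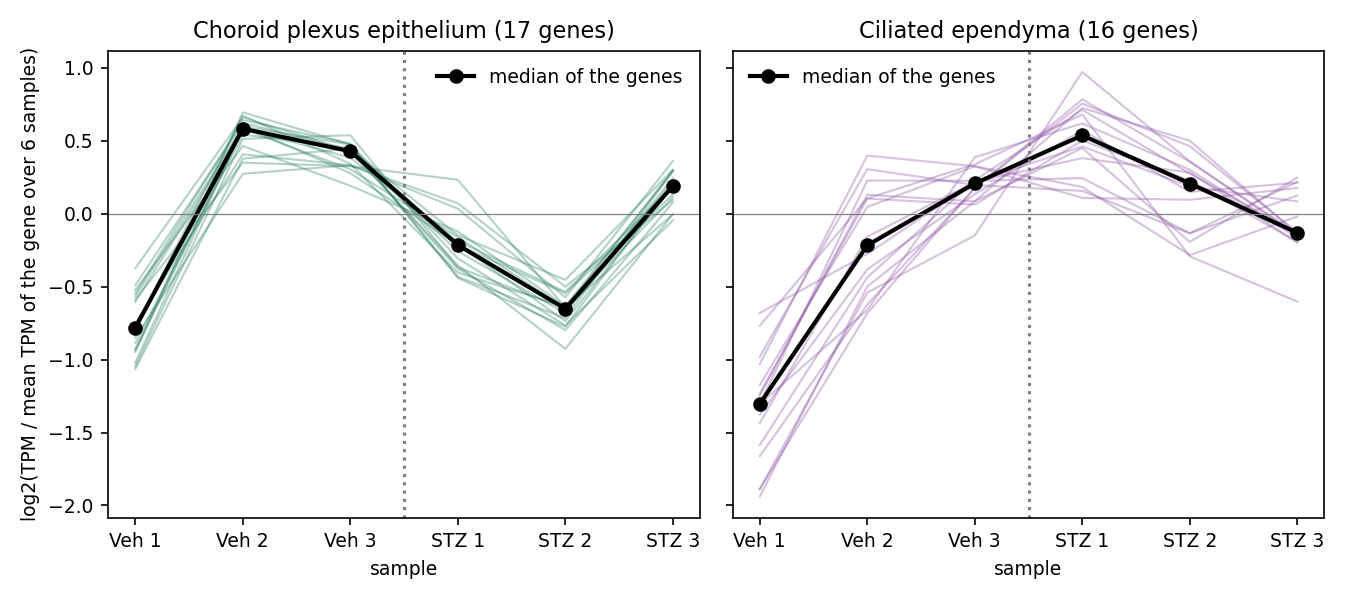
Level of each gene in each sample as log2 of its TPM over its mean TPM of 6 samples, with choroid plexus genes on the left and ependymal genes on the right. Thin lines join the values of 1 gene, the black line joins the medians, and the dotted line parts vehicle from STZ; all 16 ependymal genes are lowest in vehicle replicate 1, where 10 of the 17 choroid plexus genes are lowest too.

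None of the 33 genes passed the threshold for a change between STZ and vehicle in edgeR (an adjusted p under 0.05 with more than a 1.5-fold difference), against 0.0224% of all genes tested (5 of 22337). DESeq2, the other count model, called 0 of the 17 choroid plexus genes and 0 of the 16 ependymal genes, against 1.05% of all genes. At an unadjusted p under 0.05, edgeR gave 0 choroid plexus genes and 1 ependymal gene (Hydin), against 11.3% of all genes, and DESeq2 gave 1 (Cldn2) and 2 (Hydin and Dnah11), against 10.3%. In normalized CPM, no gene of the 33 had all STZ samples on one side of all vehicle samples, a separation that 18.5% of all genes showed. In TPM 1 gene, Dnah11, was separated in this way, against 17.2% of all genes.

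The fitted differences nevertheless had opposite signs in the 2 groups. All 17 choroid plexus genes had a negative log2 fold change, from -0.70 to -0.03 with a median of -0.38, and 15 of 16 ependymal genes had a positive one, up to 1.12 with a median of 0.49. Among all genes tested 51.9% were positive and the median was 0.01. Genes of a group varied together from sample to sample, so the count of signs is not a count of independent observations, and no p-value was computed for it.

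**Figure D3:**
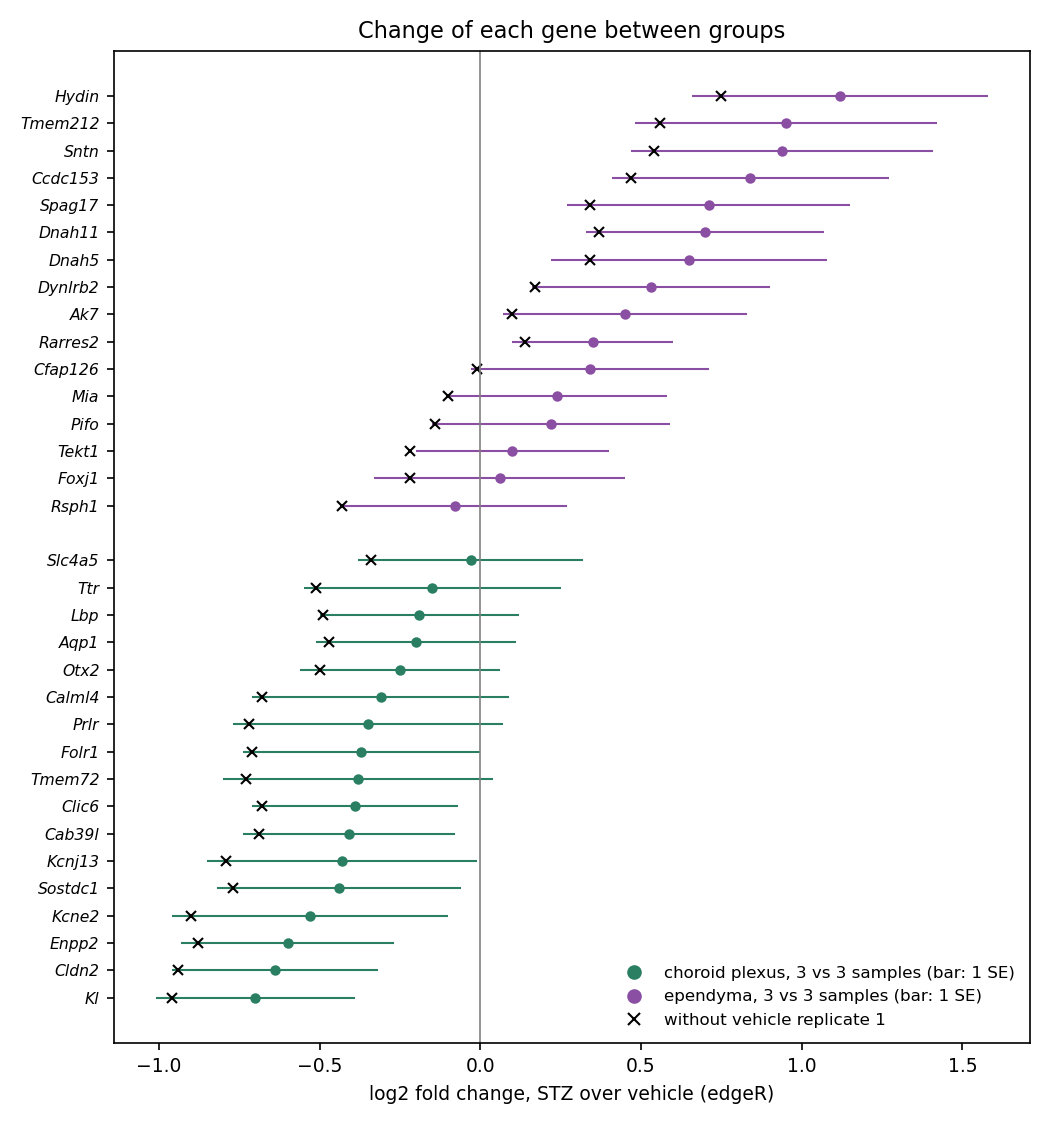
Log2 fold change of STZ over vehicle for each gene, fitted with edgeR on 3 against 3 samples (points, with bars of 1 SE) and again without vehicle replicate 1 (crosses). Green choroid plexus genes all lie below 0, from -0.70 for Kl to -0.03 for Slc4a5, and purple ependymal genes reach 1.12 for Hydin, with 6 crosses of that group below 0.

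Among the proteins that the choroid plexus secretes, Ttr was by far the most abundant. It encodes transthyretin, the carrier of thyroid hormone and retinol in cerebrospinal fluid. Its level was 10066, 27327 and 28667 TPM in vehicle replicates 1 to 3 and 18993, 15365 and 25919 TPM in STZ replicates 1 to 3. Vehicle replicate 1 was lowest and the other vehicle samples were highest, with the STZ samples between them. Ttr was rank 2 of all genes by its mean, took 1.01% to 2.87% of all TPM, and was 27.3 to 98.9 times as high as Aldh1l1, the gene whose promoter marks the sorted cells. It made up 76.9% of the mean summed TPM of the choroid plexus genes. Its log2 fold change was -0.15 ± 0.40 (SE; adjusted p = 0.911), and its sign was not stable, being 0.094 without vehicle replicate 3.

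Enpp2, which encodes autotaxin, the secreted enzyme that makes lysophosphatidic acid, followed. It read 3359, 7267 and 6387 TPM in vehicle and 3635, 2717 and 4976 TPM in STZ samples, rank 12 of all genes. STZ replicate 2 and vehicle replicate 1 were lowest, and no STZ sample reached vehicle replicates 2 or 3. The log2 fold change was -0.60 ± 0.33 (adjusted p = 0.535). Together Ttr and Enpp2 made up 94.2% of the summed level, which is why sums mostly describe these genes and averages over genes are given beside them.

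Sostdc1, a secreted inhibitor of BMP and Wnt signals, read 107, 293 and 233 TPM in vehicle and 139, 118 and 214 TPM in STZ samples. Vehicle replicate 1 was again lowest, and its log2 fold change was -0.44 ± 0.38 (adjusted p = 0.683). Lbp, the lipopolysaccharide-binding protein that hands bacterial endotoxin to CD14, was read at 40.5 to 90.4 TPM in vehicle and 48.2 to 72.7 TPM in STZ samples. Its difference was smaller, with a log2 fold change of -0.19 ± 0.31 (adjusted p = 0.847).

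Of the receptors, Kl had the smallest p of the choroid plexus genes in the edgeR fit of all samples, whereas Cldn2 had the smallest in DESeq2. It encodes Klotho, a co-receptor of the hormone FGF23 that is also shed into cerebrospinal fluid, and lies at chr5:150952607-150993817 (GRCm38). Its level was 59.1, 121 and 103 TPM in vehicle and 59.9, 40.3 and 76.4 TPM in STZ samples. The 3 STZ samples lay below vehicle replicates 2 and 3, and vehicle replicate 1 lay between STZ replicates 2 and 1. The log2 fold change was -0.70 ± 0.31 (adjusted p = 0.461), and it ranged from -0.96 to -0.49 when each sample was left out in turn.

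Folr1, the folate receptor alpha through which folate enters cerebrospinal fluid, read 172, 463 and 434 TPM in vehicle and 274, 218 and 348 TPM in STZ samples. Vehicle replicate 1 was lowest, STZ replicates 2, 1 and 3 came next and vehicle replicates 3 and 2 were highest, an order shared by 7 of the 17 choroid plexus genes. In 7 of the 17 genes STZ replicate 2 was the lowest sample. Its log2 fold change was -0.37 ± 0.37 (adjusted p = 0.736). Prlr, the prolactin receptor, was lower, at 9.81 to 29.4 TPM in vehicle and 12.9 to 24.9 TPM in STZ samples, with a log2 fold change of -0.35 ± 0.42 (adjusted p = 0.786).

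Ion and water transport and the tight junction make up the next set. Cldn2 encodes claudin-2, which forms cation and water pores between epithelial cells, and lies at chrX:139800808-139811386. Its level was 21.4, 48.8 and 43.6 TPM in vehicle and 25.3, 18.4 and 30.3 TPM in STZ samples. STZ replicate 2 was lowest, vehicle replicate 1 next, and the other vehicle samples were highest. The log2 fold change was -0.64 ± 0.32 (adjusted p = 0.494 in edgeR and 0.267 in DESeq2).

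Kcnj13, the inward-rectifying potassium channel Kir7.1 of the apical membrane, was read at 83.8 to 241 TPM in vehicle and 96.9 to 195 TPM in STZ samples (log2 fold change -0.43 ± 0.42). Kcne2, an accessory subunit of potassium channels, was read at 54.8, 171 and 147 TPM in vehicle and 77.9, 61.8 and 122 TPM in STZ samples (-0.53 ± 0.43). It had the widest range of the choroid plexus genes in normalized CPM, the highest sample being 3.23 times the lowest. Clic6, a member of the intracellular chloride channel family, read 85.3, 194 and 160 TPM in vehicle and 116, 82.5 and 140 TPM in STZ samples. Its lowest sample was STZ replicate 2, and the log2 fold change was -0.39 ± 0.32 (adjusted p = 0.662).

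Aqp1, the water channel of the apical membrane, was low for a choroid plexus gene, at 9.34 to 17.9 TPM in vehicle and 8.99 to 16.5 TPM in STZ samples (log2 fold change -0.20 ± 0.31). Slc4a5, a sodium bicarbonate cotransporter, was the least different gene, at 6.62 to 15 TPM and 8.01 to 15.3 TPM (-0.03 ± 0.35). It was the sole choroid plexus gene with its highest value in an STZ sample, replicate 3.

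The remaining choroid plexus genes act inside the cell or are less well known. Otx2, the homeobox factor needed to form and keep the choroid plexus, was read at 50, 99.1 and 82.0 TPM in vehicle and 66.0, 46.3 and 87.8 TPM in STZ samples. STZ replicate 3 lay between vehicle replicates 3 and 2, and the log2 fold change was -0.25 ± 0.31 (adjusted p = 0.797). Calml4, a calmodulin-like protein, read 105, 319 and 278 TPM in vehicle and 187, 147 and 243 TPM in STZ samples (-0.31 ± 0.40). Cab39l, a partner of the kinase LKB1, read 118, 265 and 212 TPM in vehicle and 151, 105 and 199 TPM in STZ samples (-0.41 ± 0.33). Both kept every STZ sample below vehicle replicates 2 and 3. Tmem72, a membrane protein, was the least abundant gene of the group, at a mean of 9.19 TPM, and had a log2 fold change of -0.38 ± 0.42.

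The size of the choroid plexus difference changed with single samples, and it was larger without vehicle replicate 1. All 17 genes were lower in vehicle replicate 1 than in vehicle replicates 2 and 3. All 17 were likewise lower in STZ replicates 1 and 2, as were 15 in STZ replicate 3. Without vehicle replicate 1 the median log2 fold change was -0.71, all 17 were negative, and 13 of 17 had an unadjusted p under 0.05 in edgeR, against 5.85% of all genes lower in STZ at that p. The smallest adjusted p was then 0.298, so that no gene passed the threshold in that fit either. Vehicle replicate 1 was singled out for its low level of these genes, which varied together. Leaving it out lowers their fold changes by construction, so the count of 13 is no separate support for a difference. The count at that p was 2 without STZ replicate 3 and 0 when any other single sample was left out. Kl (-0.96), Cldn2 (-0.94), Kcne2 (-0.90) and Enpp2 (-0.88) had the largest log2 fold changes without vehicle replicate 1. The median was -0.14 without vehicle replicate 2, -0.21 without vehicle replicate 3, -0.20 without STZ replicate 2 and -0.66 without STZ replicate 3. The sign of the median was negative each time, and its size changed with each of these samples.

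Vehicle replicate 1 differed in other lists too. Its oligodendrocyte genes summed to 2054 TPM, against 852 and 788 TPM in the other vehicle samples, and its microglial genes to 933 TPM, against 618 and 622 TPM. In STZ replicates 1 to 3 the oligodendrocyte sums were 2881, 1027 and 1101 TPM, so that STZ replicate 1 was higher still. The microglial sums there were 657, 842 and 609 TPM. The endothelial genes of vehicle replicate 1 summed to 76.2 TPM, the lowest of all samples, and its astrocyte genes to 18623 TPM, the highest. The part of these differences in the level of the choroid plexus and ependymal genes was not tested.

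Ependymal genes showed another order of samples. Among the genes of the ciliary axoneme, the microtubule core of the cilium, Hydin had the smallest p in edgeR. It encodes a protein of the central pair apparatus, is needed to keep mice from hydrocephalus, and lies at chr8:110266968-110610253. Its level was 0.193, 0.491 and 0.644 TPM in vehicle and 1.40, 0.916 and 0.644 TPM in STZ samples. STZ replicates 1 and 2 were above all vehicle samples, while STZ replicate 3 equalled vehicle replicate 3 to 3 digits. The log2 fold change was 1.12 ± 0.46 (adjusted p = 0.428 in edgeR and 0.123 in DESeq2), and in normalized CPM the highest sample was 7.22 times the lowest, the widest range of all 33 genes.

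Spag17, another protein of the central pair, was read at 0.523 to 1.84 TPM in vehicle and 1.43 to 2.57 TPM in STZ samples (log2 fold change 0.71 ± 0.44). The outer arm dynein heavy chains, which drive the beat, were read below 1 TPM on average: Dnah11 at 0.252 to 0.718 TPM in vehicle and 0.726 to 0.973 TPM in STZ samples (0.70 ± 0.37), and Dnah5 at 0.204 to 0.659 TPM and 0.449 to 0.774 TPM (0.65 ± 0.43). The TPM values of Dnah11 did not overlap between the groups, but its normalized CPM did, at 4.62 in STZ replicate 2 and 4.80 in vehicle replicate 3. Hydin, Dnah11 and Dnah5 were the members under 1 TPM, and all of them have very long transcripts, so that each was still counted in at least 74 reads per sample.

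Ccdc153, a subunit of the complex that regulates axonemal dynein, was read at 29.4, 60.4 and 105 TPM in vehicle and 160, 119 and 84.6 TPM in STZ samples. STZ replicates 1 and 2 were above all vehicle samples and STZ replicate 3 below vehicle replicate 3, and the log2 fold change was 0.84 ± 0.43 (adjusted p = 0.505). Tmem212, a membrane protein used as an ependymal marker, followed the same order at 26.3, 60.6 and 110 TPM and at 164, 134 and 89.0 TPM (0.95 ± 0.47, adjusted p = 0.496). Sntn, which encodes sentan at the tips of motile cilia, did so as well, at 4.28, 11.6 and 17.4 TPM and at 27.1, 23.2 and 14.9 TPM (0.94 ± 0.47, adjusted p = 0.499). These 3 genes and Hydin shared 1 order of all 6 samples, from vehicle replicate 1 to STZ replicate 1.

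Dynlrb2, a light chain of the dynein motors, was read at 31.7, 76.9 and 99.8 TPM in vehicle and 118, 97.6 and 90.9 TPM in STZ samples. STZ replicate 1 alone exceeded vehicle replicate 3, and the log2 fold change was 0.53 ± 0.37 (adjusted p = 0.616). Ak7, a ciliary adenylate kinase, was read at 5.74 to 14.5 TPM in vehicle and 11.8 to 19.1 TPM in STZ samples (0.45 ± 0.38). Cfap126, which helps to place basal bodies and cilia, was read at 18.6 to 48.3 TPM and 38.6 to 60.3 TPM (0.34 ± 0.37).

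Rsph1, a protein of the radial spoke head, was the exception in sign. Its level was 45.7, 123 and 117 TPM in vehicle and 106, 76.7 and 92.1 TPM in STZ samples. Vehicle replicates 2 and 3 were highest, as for choroid plexus genes, and the log2 fold change was -0.08 ± 0.35 (adjusted p = 0.954). Tekt1, a tektin inside the axonemal microtubules, was also highest in vehicle replicates 2 and 3, at 31.7 to 77.3 TPM in vehicle and 57.0 to 69.7 TPM in STZ samples (0.10 ± 0.30). Pifo, which acts at the base of the cilium, was read at 21.1 to 60.9 TPM and 47.4 to 61.6 TPM (0.22 ± 0.37).

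Foxj1, the transcription factor that switches on the motile cilium genes, was read at 7.48, 13.7 and 16.1 TPM in vehicle and 20.4, 10.4 and 8.39 TPM in STZ samples. STZ replicate 1 was highest, but the other STZ samples lay between vehicle replicates 1 and 2, and the log2 fold change was 0.06 ± 0.39 (adjusted p = 0.969). Of all ependymal genes Foxj1 followed the group least closely. A pair of secreted proteins close the list. Rarres2, which encodes the chemoattractant chemerin and is also made outside ependyma, was the most abundant, at 94.4, 125 and 176 TPM in vehicle and 197, 184 and 132 TPM in STZ samples (0.35 ± 0.25, adjusted p = 0.618). Mia, a small secreted protein best known from cartilage and melanoma, was read at 33.3, 77.6 and 94.1 TPM and at 81.0, 80.3 and 84.9 TPM (0.24 ± 0.34, adjusted p = 0.823).

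The size of the ependymal difference also changed with single samples. Without vehicle replicate 1 their median log2 fold change was 0.15, with 10 positive and 6 negative, and 1 of 16 genes (Rsph1, at -0.43) had an unadjusted p under 0.05 in edgeR, close to the 5.85% of all genes lower in STZ in that fit. Without vehicle replicate 3, the vehicle sample with the highest ependymal sum, the median was 0.84 and 9 of 16 had an unadjusted p under 0.05. Of all genes 7.19% were higher in STZ at that p, and the smallest adjusted p of an ependymal gene was 0.245. Leaving out the highest vehicle sample raises the fitted difference, so the count of 9 is no separate support for it. The count at that p was 1 without STZ replicate 3 and 0 without vehicle replicate 2, STZ replicate 1 or STZ replicate 2. No ependymal gene passed the threshold in any of these fits.

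Genes of other cell types varied across samples with the ependymal genes. The 10 endothelial genes summed to 76.2 to 263 TPM in vehicle and 270 to 519 TPM in STZ samples, lowest in vehicle replicate 1 and highest in STZ replicate 1, and none was at 0. All 10 had a positive log2 fold change (median 1.27) and 9 had an unadjusted p under 0.05 in edgeR, against 5.63% of all genes higher in STZ. Of the 10, 0 passed the adjusted threshold in edgeR and 1, Nostrin, did in DESeq2 (adjusted p = 0.0497). Their most abundant genes, Ly6c1 and Cldn5, had Pearson correlations of 0.875 and 0.863 with the mean ependymal level over the 6 samples. Sums of progenitor and neuronal genes were also lowest in vehicle replicate 1 and highest in STZ replicate 1. All 8 progenitor genes had a positive log2 fold change (median 0.23), and the proliferation genes Mki67 and Top2a had correlations of 0.974 and 0.944 with the mean ependymal level. The part of these lists in the result for ependymal genes was not tested.

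As a description, promoters of both groups of genes were searched for letters bound by transcription factors. RFX factors, which act with Foxj1 at ciliary genes, bind sites that hold the letters GTTGCC. In the 250 bases before the start, taken from RefSeq on GRCm38.p6 and read on both strands, these letters stood in 6 of 17 windows of ependymal genes (35.3%), in 4 of 18 windows of choroid plexus genes (22.2%) and in 3425 of 32851 promoter windows in all (10.4%). Windows were found for 13 of the 16 ependymal and 11 of the 17 choroid plexus genes, and some genes have several overlapping windows. The following 3 are shown because their genes had the highest mean TPM of the ependymal genes with these letters. Ccdc153 and Dynlrb2 were highest in STZ replicate 1, and Tekt1 was highest in vehicle replicate 2. Capitals mark GTTGCC or, on the other strand, GGCAAC. The windows lie at chr9:44240427-44240676 (plus strand), chr8:116504765-116505014 (plus strand) and chr11:72361883-72362132 (minus strand).
Ccdc153: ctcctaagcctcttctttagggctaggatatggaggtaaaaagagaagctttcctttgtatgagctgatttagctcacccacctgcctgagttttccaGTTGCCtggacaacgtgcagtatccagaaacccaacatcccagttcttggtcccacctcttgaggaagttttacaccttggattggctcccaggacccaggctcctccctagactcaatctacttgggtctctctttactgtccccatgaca
Dynlrb2: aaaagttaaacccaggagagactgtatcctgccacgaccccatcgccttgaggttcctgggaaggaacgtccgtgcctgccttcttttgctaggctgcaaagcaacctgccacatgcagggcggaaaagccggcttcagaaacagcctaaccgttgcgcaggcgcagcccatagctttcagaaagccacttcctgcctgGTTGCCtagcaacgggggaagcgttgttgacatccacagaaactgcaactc
Tekt1: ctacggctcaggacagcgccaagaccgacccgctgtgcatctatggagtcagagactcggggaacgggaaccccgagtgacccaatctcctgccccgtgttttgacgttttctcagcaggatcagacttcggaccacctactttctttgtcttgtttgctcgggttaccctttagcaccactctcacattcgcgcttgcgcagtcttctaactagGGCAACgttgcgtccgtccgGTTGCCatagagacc
The Tekt1 window precedes the start of a shorter RefSeq transcript and lies within the span of the gene, while the others precede the first base of their gene. Counted from the transcript start that each window precedes, the site lies at position -152 in Ccdc153 and -51 in Dynlrb2, and Tekt1 has sites on both strands at -35 and -15. The other ependymal genes with these letters were Hydin, Pifo and Sntn, so that the match was found both in genes with a high fitted difference and in genes near 0. A match of letters is a description of the window and was not tested as a binding site.

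The core of the site of forkhead factors, TAAACA, on either strand, stood in 6 of 17 windows of ependymal genes (35.3%: Ak7, Dnah11, Dnah5, Sntn, Spag17 and Tmem212), 22.2% of windows of choroid plexus genes and 12% of all. Its letters do not overlap those of the RFX site. The letters TAATCC, the site of Otx2 and its relatives, stood in 1 of 18 choroid plexus windows (5.56%), that of Otx2 itself, against 6.25% of all windows.

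Genes of 1 group followed each other closely across the 6 samples. Pearson's r between a choroid plexus gene and the mean log2 CPM of the other choroid plexus genes was 0.902 to 0.997 (median 0.977), and its r with the mean of the ependymal genes was 0.096 to 0.666. For ependymal genes r was 0.741 to 0.993 (median 0.941) with their own group and 0.16 to 0.862 with choroid plexus genes. These values describe 6 samples whose points share libraries and the same low vehicle replicate 1, and no p was computed for them.

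The ependymal genes differed by degrees in how closely they followed the choroid plexus genes. Rsph1 had a higher r with choroid plexus genes (0.862) than with its own group (0.795), and Tekt1 (0.809 and 0.853), Pifo (0.752 and 0.895), Cfap126 (0.695 and 0.920) and Mia (0.662 and 0.919) were intermediate. The other ependymal genes had an r under 0.49 with choroid plexus genes. On the choroid plexus side Ttr had the highest r with ependymal genes, 0.666, and Kl the lowest, 0.096.

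**Figure D4:**
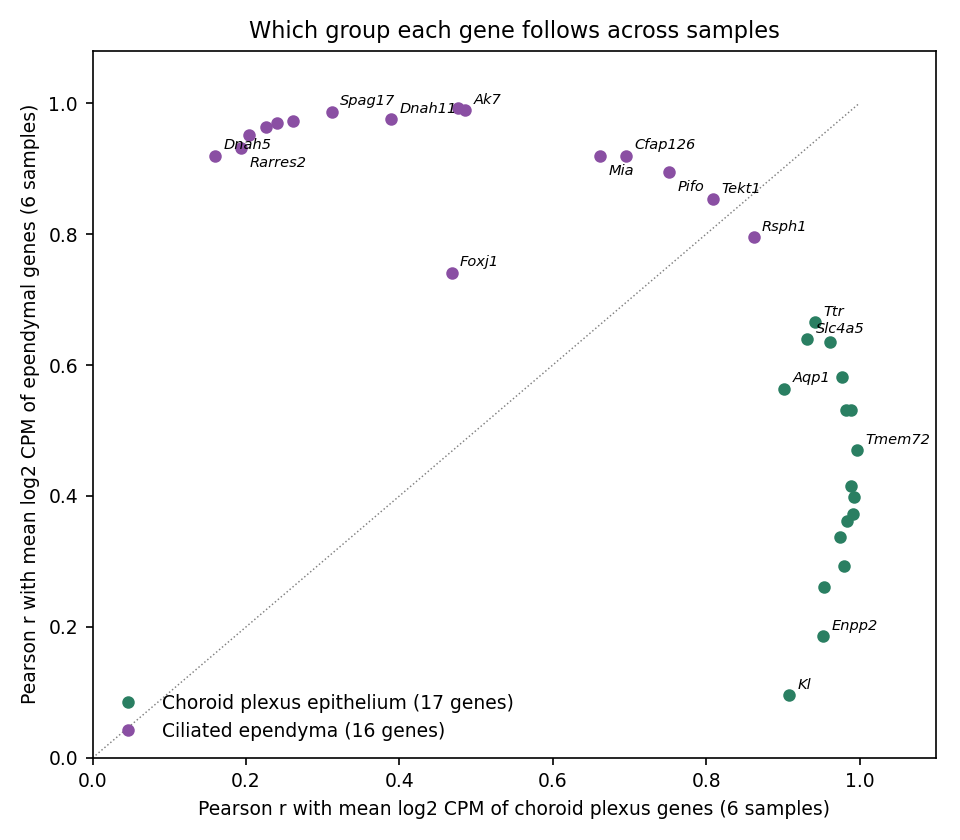
For each gene, Pearson's r over 6 samples with the mean log2 CPM of choroid plexus genes (horizontal axis) and of ependymal genes (vertical axis), the gene itself left out of its own mean. The dotted line marks equal values; all 17 choroid plexus genes (green) lie below it, and so does 1 ependymal gene (purple), Rsph1.

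Further genes of the same cell types, none of them among the 33, were laid beside these. Of 28 other choroid plexus genes, 27 had a higher r with the choroid plexus members than with the ependymal ones, 23 had a negative log2 fold change, and the median was -0.34. Without vehicle replicate 1 the median was -0.60 and 27 were negative. In edgeR 0 passed the threshold and 2 had an unadjusted p under 0.05, both lower in STZ, against 5.65% of all genes: Igfbp2, an insulin-like growth factor binding protein that astrocytes also make (log2 fold change -0.48, adjusted p = 0.407), and F5, coagulation factor V (-0.66, adjusted p = 0.443). DESeq2 called 0 of them. Igfbp2 was also the most abundant, at a mean of 1199 TPM, followed by Atp1b1, a sodium pump subunit that neurons also express, at 304 TPM. Wfikkn2 was the exception, with an r of 0.286 with choroid plexus genes and 0.951 with ependymal genes at 0.308 TPM.

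Of 44 other motile cilium genes tested, 42 were lowest in vehicle replicate 1 and 38 were highest in STZ replicate 1, the extremes of the ependymal members. The median log2 fold change was 0.48 with 41 positive, and without vehicle replicate 1 it was 0.18 with 27 positive. In edgeR 0 passed the threshold and 6 had an unadjusted p under 0.05, all higher in STZ, against 5.63% of all genes. Tekt4, a tektin, had the smallest, and its level was 11.5, 12.2 and 16.3 TPM in vehicle and 32.5, 26.0 and 21.9 TPM in STZ samples. Its groups did not overlap, its log2 fold change was 1.0 ± 0.19 (adjusted p = 0.201 in edgeR), and it was the gene of the list that DESeq2 called (adjusted p = 0.000145). Tppp3, a tubulin polymerisation promoter, and Rsph9, a radial spoke head protein, were the most abundant, at 181 and 176 TPM.

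Regulators upstream of multiciliation differed widely in level. Mcidas, which starts the programme in progenitors of multiciliated cells, was listed at 0 in all samples, and of 12 such genes 9 had a read in every sample. Their median log2 fold change was 0.12, with 5 positive and 4 negative, 0 passed the threshold in edgeR or DESeq2, and 1 of the 9, Ccno, had an unadjusted p under 0.05 in edgeR (log2 fold change 0.99), against 11.3% of all genes. The median was 0.06 without vehicle replicate 1. E2f5 and E2f4, cell cycle factors expressed in many cells, were the most abundant, at 60.2 and 29.5 TPM.

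**Figure D5:**
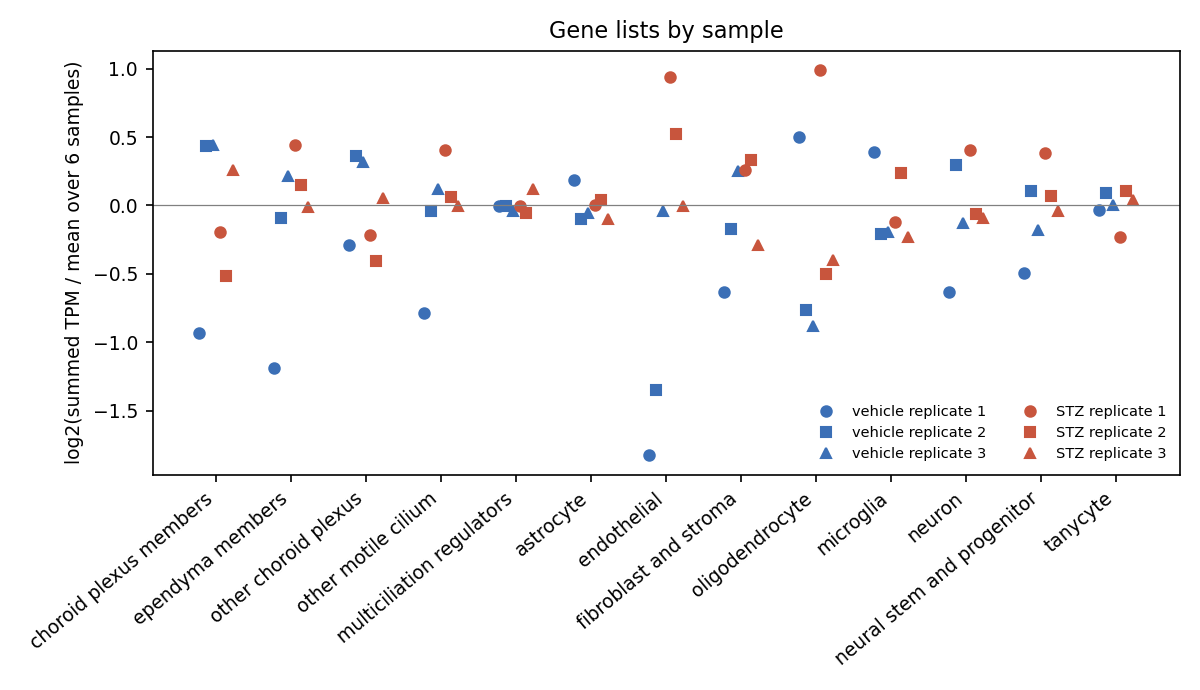
Summed TPM of each gene list in each sample, as log2 over the mean of 6 samples, with blue for vehicle and red for STZ and a marker shape per replicate number. Vehicle replicate 1 is lowest for choroid plexus, ependymal, other motile cilium, endothelial, stromal, neuronal and progenitor genes, and the endothelial sums of STZ samples (270 to 519 TPM) lie above those of vehicle samples (76.2 to 263 TPM).

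Other cell types that a sort of dissociated brain could hold were laid beside the members too. Fibroblast and stroma genes, of the core of the choroid plexus and of the meninges, summed to 25.4 to 46.9 TPM in vehicle and 32.2 to 49.5 TPM in STZ samples. Tanycyte genes, of the ependyma-like cells of the third ventricle, summed to 322 to 351 TPM and 282 to 356 TPM. Crym and Lhx2, at means of 184 and 123 TPM, made up most of these sums, which mostly describe these genes. Neural stem and progenitor genes summed to 80.9 to 123 TPM and 111 to 149 TPM. Neuronal genes summed to 61.3 to 117 TPM and 89.4 to 126 TPM. Apart from the endothelial list, the sums of vehicle and STZ samples overlapped in each of these lists. No gene of the astrocyte, fibroblast, oligodendrocyte, microglial, neuronal, progenitor or tanycyte lists passed the threshold in edgeR or DESeq2. At an unadjusted p under 0.05, edgeR gave 1 higher and 4 lower among the 12 astrocyte genes, against 5.63% and 5.65% of all genes. It gave 1 higher among 8 progenitor genes and 1 higher among 5 tanycyte genes.

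Some members share exons with another gene in the GENCODE M21 annotation, and no source says that strand was used in counting, so reads of such partners cannot be told apart. This concerned 5 choroid plexus genes (Enpp2, Otx2, Prlr, Kcnj13 and Cab39l) and 5 ependymal genes (Mia, Dnah11, Spag17, Rarres2 and Hydin). Leaving these aside, the genes without such an overlap included Ttr, Kl, Cldn2, Tmem212, Ccdc153 and Sntn, whose values are given above.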

How the data were processed

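RNA of sorted tdTomato-positive cells was sequenced by the authors, who aligned reads to mm10 with HISAT2 2.1.0 and quantified genes with StringTie 2.1.3b (versions from the submitters' processing notes). They deposited for each gene a whole-number read count without normalization, an FPKM value and a TPM value per sample. The deposited FPKM values are fragments per transcript length and mapped reads, and the deposited TPM values are scaled to a fixed sum per sample. The library kit is named differently in the methods and in the sample labels, and the gene annotation is not given in the sources used here. The study dropped genes lacking reads in a sample, and so did the fits here. Its removal of outlier genes is not described and was not repeated.

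The 6 samples were grouped by their titles. The 22337 genes with at least 1 read in every sample were fitted together with edgeR 4.0.16 in R 4.3.3 (TMM scaling, quasi-likelihood F test, group as the single factor, two-sided). P-values were adjusted over all of them by the Benjamini-Hochberg method, and a call needed an adjusted p under 0.05 together with more than a 1.5-fold difference. The study used DESeq2, and DESeq2 1.42.0 was run as an alternative. Fold changes are given on the log2 scale with their standard errors. Log2 CPM used a prior count of 2. Counts of 3 correspond to 0.0511 to 0.0571 CPM per sample, and such floors cover counting error only. Chi-square per gene between samples was 15.8 to 82.8, so no library appeared in duplicate. The procedures were tested on simulated data.

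The 33 genes and the lists beside them were chosen with earlier results of these data known. All members are named, with values in every sample for the 6 most abundant and the 4 with the smallest edgeR p of each group. Of other lists, naming was limited to genes past the threshold and the 2 most abundant, and genes most like each group are the 3 with the highest Pearson's r among 16219 genes with a mean CPM of at least 1. Values of further single genes (Tekt4, Nostrin, Mki67, Top2a, F5, Wfikkn2, Ccno, Foxj1, Otx2, Kcne2) were picked after they were seen. Of 45 cilium genes listed, 44 were matched, 2 of them by an older symbol. Promoters came from RefSeq, gene positions from its annotation of GRCm38, and exon overlaps from GENCODE M21. Alternatives were DESeq2, its size factors in edgeR, other filters, robust fitting, limma 3.58.1 on log2(TPM + 1) and log2(TPM + 0.1), the replicate number as a block, scaling without the 50 most abundant genes, other thresholds and leaving out each sample.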

Additional observations from a re-analysis of the deposited data

How the results depend on the processing

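No choroid plexus or ependymal gene passed the threshold under any alternative, and their smallest adjusted p over all of them was 0.123 (Hydin in DESeq2). Over all genes, the count of calls was 5 in edgeR, 234 in DESeq2, 10 with robust fitting, 10 at an adjusted p under 0.1, 0 in limma on log2(TPM + 1) (2635 at an unadjusted p under 0.05) and 0 on log2(TPM + 0.1) (2612). It was 0 to 1 when each sample was left out, with 1 without vehicle replicate 3. The cause was not tested, other than that leaving out a sample leaves fewer of them. Replicate numbers were shared only as numbers: deviations of same-numbered vehicle and STZ samples correlated at -0.101, -0.162 and -0.184. With the replicate number as a block, 0 genes were called (1793 at an unadjusted p under 0.05).

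Of 495 log2 fold changes of the 33 genes under the alternatives, 473 kept their sign, and 24 genes kept it under each. Slc4a5 turned to 0.014 with the replicate block, 0.013 on log2(TPM + 1) and 0.018 on log2(TPM + 0.1), and Rsph1 to 0.033, 0.060 and 0.062 in the same settings. When each sample was left out, Ttr ranged from -0.51 to 0.094, Aqp1 from -0.47 to 0.0097, Slc4a5 from -0.34 to 0.19, Rsph1 from -0.43 to 0.14, Foxj1 from -0.41 to 0.29, Mia from -0.10 to 0.55, Cfap126 from -0.0096 to 0.56, Pifo from -0.14 to 0.45 and Tekt1 from -0.22 to 0.30. Medians kept their sign in all settings, at -0.71 to -0.14 for choroid plexus and 0.15 to 0.84 for ependymal genes when samples were left out. Depth limits little here, as the smallest count of a member in a sample was 74.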

Other observations

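Outside the 33 genes, those whose log2 CPM followed the choroid plexus genes most closely over the 6 samples, among 16219 genes compared, were Trpv4 (r = 0.999), Cdc37 (0.998) and Cdc14b (0.996). Trpv4, a calcium channel of the choroid plexus that was in the list of other choroid plexus genes, was read at 16, 40.5 and 35.1 TPM in vehicle and 23.6, 17 and 31.6 TPM in STZ samples. Cdc37, a co-chaperone of HSP90 found in all cells, had the same order with a highest sample 1.24 times its lowest in normalized CPM, against 2.74 times for Trpv4.

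The genes closest to the ependymal genes were Cfap299, Enkur and Fam216b (r = 0.999, 0.999 and 0.998). Enkur, a protein of motile cilia and sperm, was read at 6.83, 18.5 and 27.9 TPM in vehicle and 37.9, 25.6 and 22.6 TPM in STZ samples, with a log2 fold change of 0.66 (adjusted p = 0.613 in edgeR). Cfap299 had a log2 fold change of 0.69 (adjusted p = 0.605 in edgeR) and Fam216b of 0.56 (adjusted p = 0.669).

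Kcne2 and Clic6 are near neighbours on chromosome 16, at chr16:92292389-92298133 and chr16:92498147-92541241 (GRCm38). Their r with choroid plexus genes was 0.993 and 0.991, their highest samples were 3.23 and 2.39 times their lowest in normalized CPM, and the genes between them did not share this pattern. Smim11 had an r of 0.607 and a range of 1.65 times, and Rcan1, a calcineurin regulator, an r of 0.513 and a range of 1.25 times. Kcne1, a gene of the same family as Kcne2 in the same interval, had 2 reads in 1 sample and 0 in the others.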
